A study of Mus musculus with 8 samples.

Results

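Footpad skin of a conditional Dicer knockout was followed from E16.5 to E17.5 (E for embryonic day) on 4 2-colour Agilent arrays. There were 2 arrays at each stage, out of 8 arrays in all. The arrays were taken by their labels: the conditional Dicer knockout (KO, "Dicer cKO" in the labels) on a C57BL6 background at E17.5 against the same genotype at E16.5. The other 4 arrays hold wild-type (WT) C57BL6 footpads at the same stages, again 2 for each, and serve here to show what the same day did in skin with Dicer. Footpad skin is the hairless skin of the paw in which mouse sweat glands form. Each array carried RNA pooled from 3 to 5 embryos, so the values are means over embryos and the 2 arrays of a group are separate pools, called biological replicates by the labels. The driver and the cell type of the deletion are not given in the sources used here, and fewer cells of a type cannot be told apart from less RNA per cell. On every array the footpad RNA was labelled with Cy3 and a universal mouse reference RNA with Cy5, with no dye swap. All E16.5 arrays lay on 1 slide and all E17.5 arrays on the other, so stage and slide cannot be told apart; the reference RNA, which was the same on both slides, gives a measure of what a slide alone moved.

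Dicer cuts hairpin precursors into mature microRNAs. A mature microRNA guides Argonaute proteins to messenger RNAs, mostly through its seed, bases 2 to 8, and paired messengers are degraded or less translated. In footpads, epidermal buds are induced first and then grow down into the dermis as ducts and coiled glands, while the surface epidermis stratifies and cornifies towards birth. The series title places its question in the phase after induction.

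The array holds 42006 different probes of 60 bases. Values are log2 ratios of processed footpad signal to processed reference signal, so 0 means equal signal in both dyes and 1 means a doubled signal in the footpad. A probe entered the test when its footpad signal was well above background on both arrays of at least 1 KO stage and it had a value on all 4 KO arrays, which left 27877 probes (66.4%). Of 28259 that passed the first condition, 382 lacked a value on a KO array. The deposited tables name no gene. A probe was named here only where its whole sequence matched a stretch that falls inside the span of exactly 1 RefSeq gene in GRCm38.p6, on the gene's strand, which gave 108 named probes, of which 78 were tested, for 74 genes. Copies of these sequences elsewhere in the genome were not searched, so a name does not show that no other transcript is read. Only windows from 250 bases before to 50 after RefSeq gene starts were searched, which placed 267 probes. A gene without a named probe may therefore still have probes on the array. None of 461 genes on lists of skin, sweat gland, cell cycle and other cell type markers had a named probe. Dicer1 had none either, so neither the deletion nor the tissue label was checked against its genes.

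The probes that the results turn on are shown first, by the first 30 of their 60 bases in lower case. Of the unnamed probes that were called and were above background and unsaturated in both dyes on all 4 KO arrays, the 2 with the largest rises and the 2 with the largest falls are these, in that order; probes outside these limits had larger fitted changes.
Z00056183-1: atgcttaaaagtcggaacctatagatgtcc
Z00071146-1: caacgcgggacccagcaccagcatgagcac
Z00027047-1: gttccctggcctatggatctagaagttgct
Z00059474-1: ggccaaggatgcctttgtccatctttcaga
The next 4 are unnamed probes whose footpad signal was above background on all 4 KO and all 4 WT arrays. Within that limit their stage change differed most between KO and WT, by the smallest p in each direction.
Z00030723-1: gcaagggcactgtggtcatcattgccttct
Z00073972-1: cttgtcaatcctactggccatcctgcttgt
Z00076855-1: gccactatcggcttgtgattttaaacaata
Z00076556-1: aaagagcattgggtggactgagggattagg
Among named genes, the largest rises and falls were read by these probes.
Hspd1: gttctagaacggaccgtggcccaggaacca
Fam180a: cccaaagccatgaagaagactctgtatttt
Tulp4: ttaatagacacagttctaagattgcttttt
Gm4718: taatgcgggtcgcctgggccagtttgatct

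Many transcripts differed between the stages in KO footpads, most of them by little. Of the 27877 probes, 6570 (23.6%) were called changed by limma at an adjusted p under 0.05, 2918 higher at E17.5 (10.5%) and 3652 lower (13.1%). The median size of a called rise was 1.33-fold and that of a called fall 1.3-fold. A rise of at least 2-fold was called for 314 probes and a fall of at least 2-fold for 268; at least 4-fold, 51 rose and 67 fell. The median change over all tested probes was -0.03 on the log2 scale. In all 6570 called probes both E17.5 arrays lay on the same side of both E16.5 arrays, which also held for 66.4% of all tested probes. The number of calls was lower in every fit that left out 1 array. This held for WT arrays too, which enter through the shared estimate of spread. Each of these fits leaves 1 array in a group and weakens the test. The 2 fits that leave out 1 or the other array of a KO stage weaken it alike. Their counts therefore differ only by which KO array remained. How much of the drop from the full fit came from the weaker test was not separated. Fitted on the 4 KO arrays alone there were 1373 calls, of which 1312 were among the 6570.

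Signal was weaker on the later KO arrays. The footpad signal was well above background for 68.6% and 68.5% of the 42006 probes on the E16.5 KO arrays and for 61.4% and 64.5% on the E17.5 KO arrays, against 65.9% to 71.4% on WT arrays. In the reference dye KO E17.5 replicate 1 had 70.5%, against 76.5% to 79.2% on the other 7 arrays. In KO, 1352 tested probes were well above background on both E16.5 KO arrays and on neither E17.5 one, against 35 the other way. Of the 1352, 254 were called lower, and of the 35, 27 were called higher, beside 3652 lower and 2918 higher among all 27877. These probes passed the filter only through the stage where they were above background, so the direction of their calls largely follows from the filter. They are included in the counts of falls and rises given above. Their differences are bounds on the change, not its size. Of the 1352, 524 were above background on both WT E17.5 arrays. The part of signal strength in these calls was not tested. Among the 25030 probes above background on all 4 KO arrays, 2859 were called higher and 3297 lower.

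The reference channel moved less than the footpad channel between the same arrays. The median absolute difference between stages was 0.0592 (log2) for Cy5 alone, 0.189 for Cy3 alone and 0.172 for their ratio. The 95th percentile of the absolute difference was 0.393 for Cy5 and 0.846 for Cy3. Among called probes that changed at least 4-fold, the median Cy5 change was 0.223 for rises and 0.208 for falls. Tested in the same way, Cy5 alone had 42 calls (0.151%; 3362 at an unadjusted p under 0.05) and Cy3 alone 7312 (26.2%). Over all 4 arrays of each slide Cy5 had 313 calls. Leaving out 1 array moved the 42 calls to 2 without KO E17.5 replicate 1 and to 187 without KO E16.5 replicate 1. They were 18 when 1 or the other WT E16.5 array was left out and 17 when 1 or the other WT E17.5 array was. Cy3 alone had 2560 calls without KO E16.5 replicate 2 and 3623 without KO E17.5 replicate 1. Of the 6570 called probes, 6526 went the same way in Cy3 alone, and 251 (3.82%) differed more in Cy5 than in Cy3. Cy5 gauges what scanning, hybridisation and the reference labelling added to a slide; differences in footpad dissection, pooling or labelling between the stages do not pass through it and cannot be told apart from stage.

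**Figure D1:**
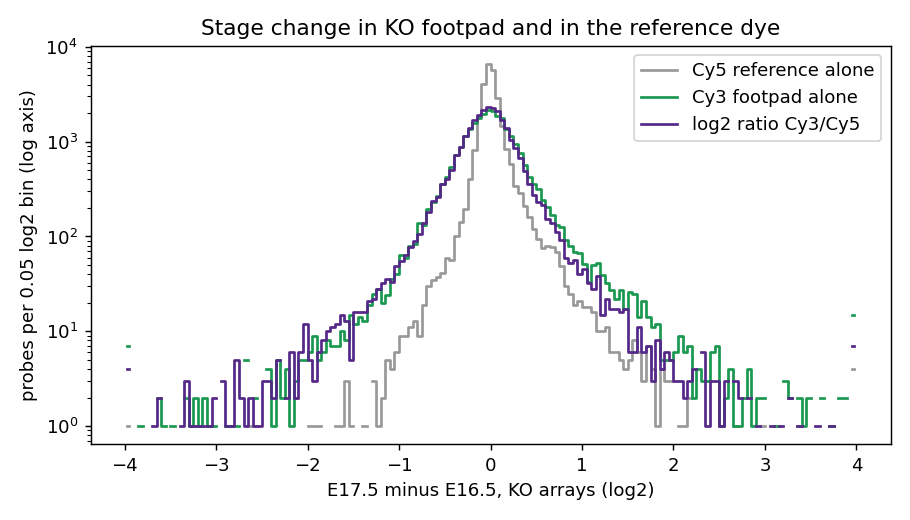
Number of probes (log axis, bins of 0.05) by the difference E17.5 minus E16.5 in KO arrays (log2), for Cy5 reference signal alone, Cy3 footpad signal alone and their ratio; the end bins collect what lies beyond. The Cy5 curve is the narrowest, with a median absolute difference of 0.0592 against 0.189 for Cy3.

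These 4 probes, the largest rises and falls among those measured in both dyes on all 4 KO arrays, moved the same way in KO and WT. Z00056183-1 was at -1.19 and -1.54 (log2 ratio) on the E16.5 KO arrays and at 2.24 and 2.19 on the E17.5 ones. It rose by 3.58 ± 0.17 (SE), or 11.9-fold, with an adjusted p of 0.0019, and its WT change was 3.45. With normexp background correction and loess normalization of the unprocessed signals its rise in KO was 1.74, so its size depends on the background correction and normalization. The 2 stages stood far apart in either genotype. The footpad signal of this probe was well above background on only 3 of the 4 WT arrays, so the size of its WT change is less certain. Z00071146-1 was at 0.20 and 0.25 and then at 3.66 and 3.51, a rise of 3.36 ± 0.08 (SE; adjusted p = 0.00056) in KO beside 3.31 in WT. Its reference signal also rose between the KO arrays, by 1.42 (adjusted p = 0.0065 in Cy5 alone), while its footpad signal rose by 4.79. Of the falls, Z00027047-1 was at 4.94 and 4.99 at E16.5 and at 0.97 and 1.69 at E17.5. It fell by 3.63 ± 0.27 (SE), or 12.4-fold (adjusted p = 0.0035), beside a WT change of -4.30 and a Cy5 change of -1.14 (adjusted p = 0.46). Z00059474-1 was at 4.87 and 5.21 and then at 1.49 and 1.82. It fell by 3.38 ± 0.33 (SE; adjusted p = 0.0050), beside a WT change of -3.66. Both falling probes were above the reference on all 4 KO arrays.

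Of the 74 named genes tested, 7 rose and 10 fell (23%), about the share over all probes, with a median change of -0.03. The genes that follow were measured above background in both dyes on all 4 KO arrays. Hspd1, the mitochondrial chaperonin that folds imported proteins, rose most (chr1:55088008-55088067, minus strand). Its log2 ratio was 1.39 and 1.08 on the E16.5 KO arrays and 2.33 and 2.41 on the E17.5 ones, a rise of 1.13 ± 0.17 (SE), or 2.19-fold (adjusted p = 0.011). Its WT change was 0.84 (adjusted p = 0.023). The gene has processed copies, so the probe may read more than 1 transcript. Fam180a (chr6:35312995-35313054, minus strand) was at -0.32 and -0.48 and then at 0.39 and 0.45, below the reference on each E16.5 KO array and above it on each E17.5 one. It rose by 0.82 ± 0.07 (SE; 1.77-fold, adjusted p = 0.0041), beside 0.84 in WT.

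The other rises were under 1.5-fold. Pgpep1, a peptidase that removes an amino-terminal pyroglutamate (chr8:70659729-70659788, minus strand), went from 0.24 and 0.33 to 0.88 and 0.77, a rise of 0.55 ± 0.11 (SE; adjusted p = 0.020). Its rise was 0.30 in Cy3 alone, beside a Cy5 change of -0.26, and 0.18 under normexp and loess, both still called. Abhd6, a monoacylglycerol lipase (chr14:8055589-8055648, plus strand), went from 1.41 and 1.30 to 1.85 and 1.77, a rise of 0.45 ± 0.06 (SE; adjusted p = 0.0086). Rab7, the small GTPase of late endosomes (chr6:88045112-88045171, minus strand), went from -0.57 and -0.80 to -0.30 and -0.23, a rise of 0.42 ± 0.08 (SE; adjusted p = 0.021). That the KO stages did not overlap was a condition for the choice of these genes. In WT, Pgpep1 changed by 0.31 (adjusted p = 0.097), Abhd6 by 0.155 (adjusted p = 0.127) and Rab7 by 0.39 (adjusted p = 0.028). Ciao2b, part of the machinery that loads iron-sulfur clusters in the cytosol (chr8:104641554-104641613, minus strand), was at -1.31 and -1.45 and then at -1.07 and -1.15, a rise of 0.27 (adjusted p = 0.032). Renbp, an epimerase of amino sugars also known for binding renin (chrX:73922122-73922181, minus strand), was at -0.81 and -0.91 and then at -0.59 and -0.60, a rise of 0.26 (adjusted p = 0.037). Both genes were below the reference on all 4 KO arrays. In WT, Ciao2b changed by -0.02 (adjusted p = 0.82) and Renbp by 0.30 (adjusted p = 0.028). Taking the trend with GC content out of each array ended the call of Ciao2b in KO, at 0.22 (adjusted p = 0.059).

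Tulp4, a tubby-like protein, had the largest called fall among the named genes (chr17:6137920-6137979, plus strand). It went from -0.53 and -0.48 at E16.5 to -1.18 and -1.16 at E17.5, and fell by 0.66 ± 0.10 (SE), or 1.58-fold (adjusted p = 0.011), beside -0.58 in WT; under normexp and loess the KO change was -0.34. Gm4718, a predicted gene (chr17:85799969-85800028, plus strand), was at -1.01 and -0.90 and then at -1.49 and -1.5, and fell by 0.54 ± 0.11 (SE; adjusted p = 0.026). Its WT change was -0.02 (adjusted p = 0.91), and the difference between genotypes, -0.51 ± 0.16 (SE), had an adjusted p of 0.38. The call of its KO change was lost under normexp and loess, at -0.11 (adjusted p = 0.31), and in Cy3 alone, at -0.46 (adjusted p = 0.054). Gm1673 (chr5:33983515-33983574, plus strand) went from -0.06 and 0.00 to -0.53 and -0.48, and fell by 0.47 (adjusted p = 0.026).

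Ntng1, a membrane-anchored relative of the netrins that guides axons (chr3:110143430-110143489, minus strand), was far above the reference throughout, at 6.32 and 6.44 at E16.5 and at 5.88 and 6.01 at E17.5. It fell by 0.44 ± 0.11 (SE; adjusted p = 0.042), beside -0.61 in WT. Its change was -0.85 in Cy3 alone, with -0.43 in Cy5, and -0.66 under normexp and loess, while quantile normalization ended the call at -0.32 (adjusted p = 0.12). S100a7a, a calcium-binding protein of the psoriasin group in the epidermal gene cluster (chr3:90654247-90654306, plus strand), was at 1.03 and 1.05 and then at 0.59 and 0.79, and fell by 0.35 (adjusted p = 0.041). In Cy3 alone its change was -0.13 (adjusted p = 0.29), and its reference signal differed by 0.21. Bcl11a, a zinc-finger transcription factor (chr11:24172868-24172927, plus strand), was at 2.55 and 2.62 and then at 2.33 and 2.15, and fell by 0.34 (adjusted p = 0.038). Tmc4, a transmembrane channel-like protein (chr7:3665794-3665853, minus strand), Podxl2, a sialomucin of the CD34 family (chr6:88842740-88842799, minus strand), and Mapkbp1, a binding partner of MAP kinases (chr2:120027327-120027386, plus strand), fell by 0.27, 0.25 and 0.24. The change of Podxl2 in Cy3 alone was -0.38. Median centring and quantile normalization ended the calls of Podxl2, Mapkbp1 and S100a7a. Mapkbp1 also lost its call with the GC trend taken out of each array, at -0.19 (adjusted p = 0.059). A further gene, Gm5106, was called lower at -0.47 but was above background on only 2 of the 4 KO arrays.

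Many of these calls were lost when 1 array was left out, which leaves 1 array in a group and weakens the test. Fam180a and Abhd6 were called in all 8 fits that left out 1 array. Without KO E16.5 replicate 2 they were the only 2 of the 16 genes called; leaving out the first KO E17.5 array kept these and Hspd1, and leaving out the second kept these, Hspd1, S100a7a and Tulp4. Leaving out KO E16.5 replicate 1, or 1 or the other WT E16.5 array, left 8 genes called, and leaving out 1 or the other WT E17.5 array left 12. On the 4 KO arrays alone 6 were called. The sign of all 16 held in each of these fits.

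**Figure D2:**
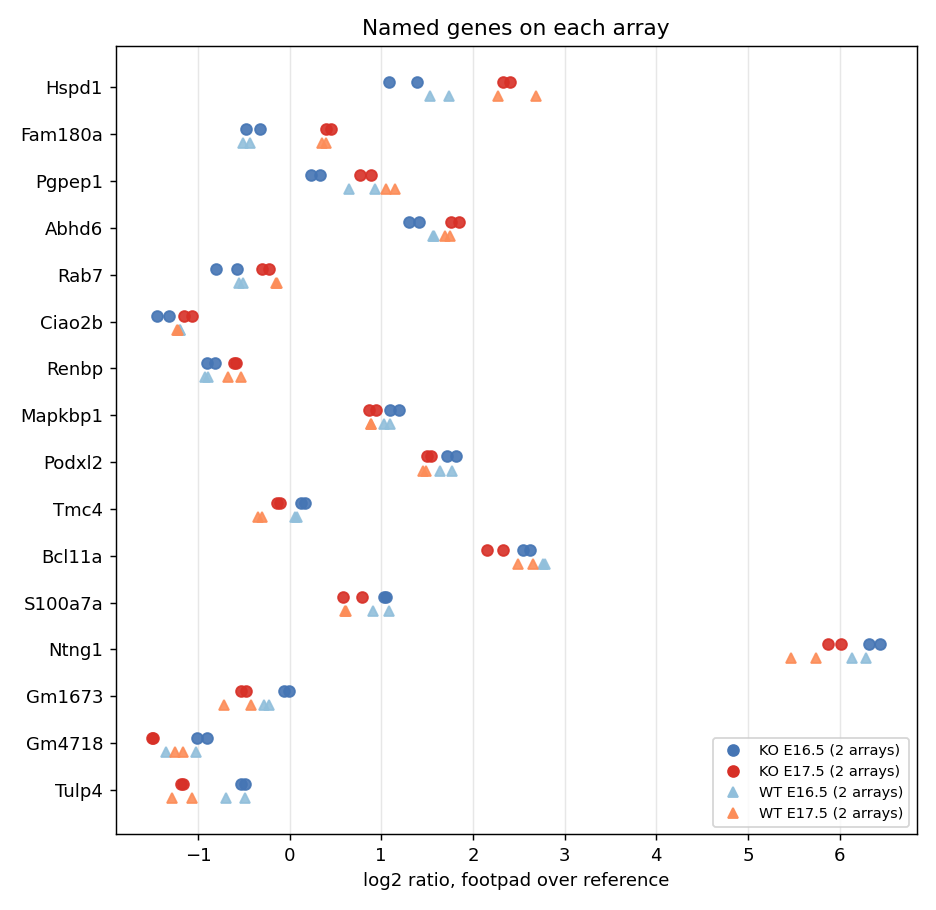
Log2 ratio of footpad to reference signal of the 16 named genes, 1 point for each array, circles for KO and triangles for WT, ordered from the largest rise to the largest fall in KO. That the 2 KO stages lie apart was a condition for the choice of these genes, and no such condition was set for WT. The WT stages overlap for Gm4718 and almost touch for Ciao2b.

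The stage changes in KO and WT went largely together. Across the 27860 probes fitted in both genotypes, Pearson's r of the 2 changes was 0.729 and Spearman's rho 0.642, given as a description over probes that share slides, reference and base composition but no array. In WT, 5293 probes (19%) were called, 2588 higher and 2705 lower. Of the KO calls with a WT value, 94.6% had the same sign in WT, beside 73.9% of all tested probes. Called the same way in both genotypes were 1724 higher and 1725 lower, which is 52.5% of the KO calls and 65.2% of the WT calls, while 24 were called in opposite directions. The agreement in sign was high in each size class. Of the 51 probes that rose at least 4-fold in KO all 51 were higher in WT, with median changes of 2.47 in KO and 2.58 in WT. Of the 67 that fell at least 4-fold, 65 were lower in WT, with medians of -2.48 and -2.07. Falls from 2-fold to under 4-fold had a median of -1.31 in KO and -0.85 in WT. The size classes were set by the call and the change in KO, so a smaller median in WT does not show a difference between the genotypes.

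**Figure D3:**
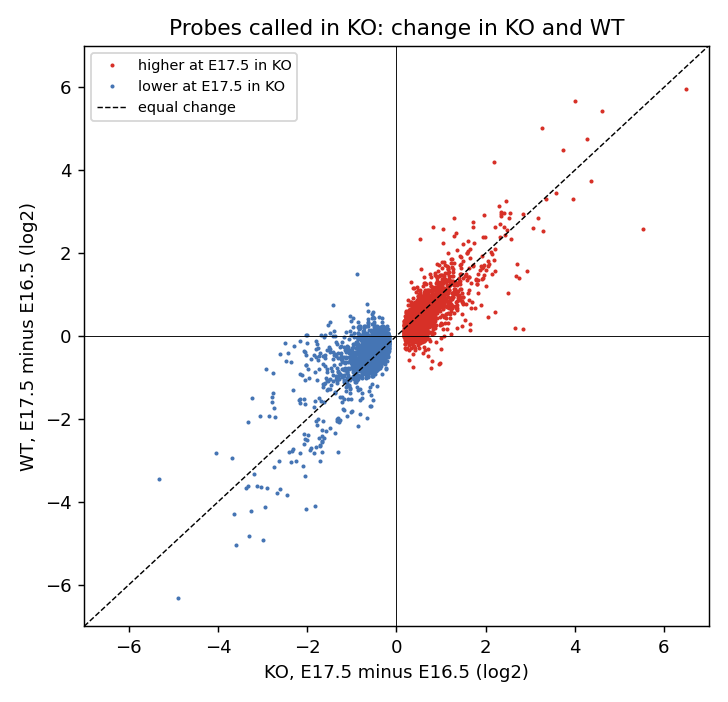
Change from E16.5 to E17.5 (log2) in KO on the horizontal axis and in WT on the vertical axis for the probes called in KO, red for higher and blue for lower at E17.5; the dashed line marks equal change. Of these probes 94.6% lie in the quadrants of equal sign.

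No probe passed the direct test of a difference between the KO and WT stage changes. Of 27860 probes 0 (0%) had an adjusted p under 0.05 in limma, 3263 had an unadjusted p under 0.05, and the smallest adjusted p was 0.126. With normexp background correction and loess normalization in place of the processed signals 82 probes passed, among them the 4 unnamed probes given next. Z00030723-1 was at 2.87 and 2.95 at E16.5 and at 2.16 and 2.34 at E17.5 in KO, against 2.95 and 2.87 and then 0.94 and 0.91 in WT. The 2 genotypes were level at E16.5, and at E17.5 the WT ratio was far lower than that in KO. Between the KO stages its reference signal fell by 0.87 (adjusted p = 0.0065 in Cy5 alone) and its footpad signal by 1.52, against the ratio's change of -0.66. The KO change exceeded the WT change by 1.32 ± 0.11 (SE; adjusted p = 0.126). Z00073972-1 behaved much like it, at 3.07 and 3.10 and then 2.15 and 2.31 in KO, with a KO change of -0.86 against -2.18 in WT. Its Cy5 change between the KO stages was -0.67 (adjusted p = 0.062) and its Cy3 change -1.51.

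For the other pair the stage change was called in WT, with adjusted p-values of 0.0023 and 0.0017, and not in KO, with 0.094 and 0.69. Z00076855-1 was at 1.32 and 1.34 and then at 1.16 and 1.00 in KO, against 1.29 and 1.5 and then 2.48 and 2.52 in WT, a difference of -1.36 ± 0.13 (SE; adjusted p = 0.149). Z00076556-1 was at 0.01 and 0.04 and then at -0.06 and 0.04 in KO, against 0.60 and 0.48 and then 1.43 and 1.41 in WT, a difference of -0.92 ± 0.09 (SE; adjusted p = 0.149). Under normexp and loess these 4 differences were 1.24, 1.26, -0.98 and -0.75, with adjusted p-values of 0.0024, 0.0026, 0.011 and 0.0075. No other setting of the processing called any of the 4. With the replicate number as a block their adjusted p-values were 0.27 to 0.29. The 4 were picked by their small p on these same arrays. Among named genes the smallest p of the difference belonged to Abhd6 for a higher KO change (0.30 ± 0.08, SE, adjusted p = 0.36) and, among genes above background on all arrays, to Gm4718 for a lower one, with the values given above.

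**Figure D4:**
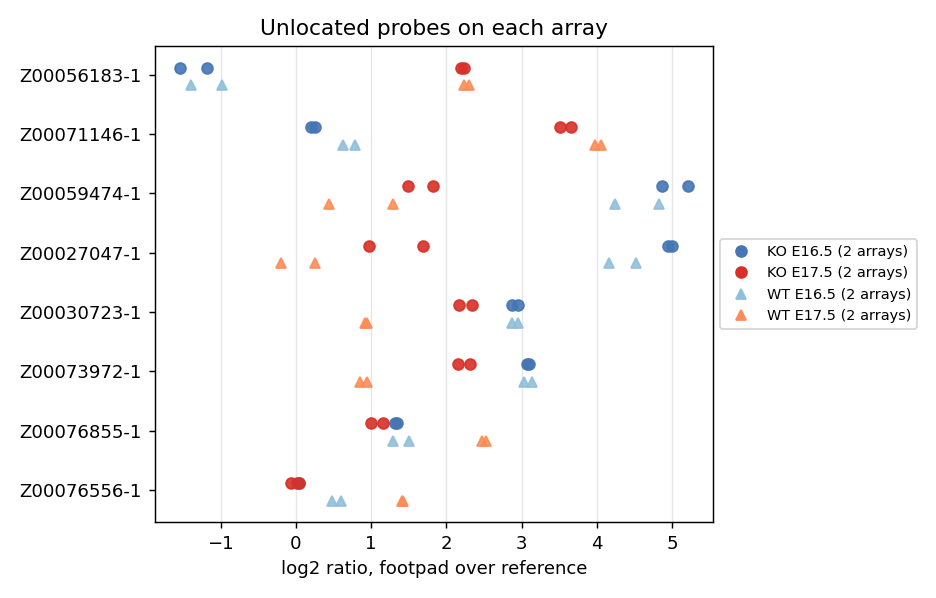
Log2 ratio of footpad to reference signal of the 8 unnamed probes, 1 point for each array, circles for KO and triangles for WT. The upper 4 change by more than 3 log2 units in both genotypes, and in the lower 4 the WT arrays at E17.5 stand apart from the KO arrays at E17.5.

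The share of called probes varied with signal and base composition. It was 13.1% in the lowest quintile of mean Cy3 signal and 28.9% in the highest. Probes of at most 30% GC had a median change of -0.12, with 6.37% called higher and 18.6% lower. Above 60% GC the median was 0.04, with 14.5% higher and 4.41% lower. The same gradient stood in WT, with medians of -0.08 and 0.03 at these ends, while the reference dye had 0.02 and -0.01. With the GC trend taken out of each array, 6360 probes were called, 3369 higher and 2991 lower, and 5779 of them were among the 6570. This setting was chosen after seeing the data.

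**Figure D5:**
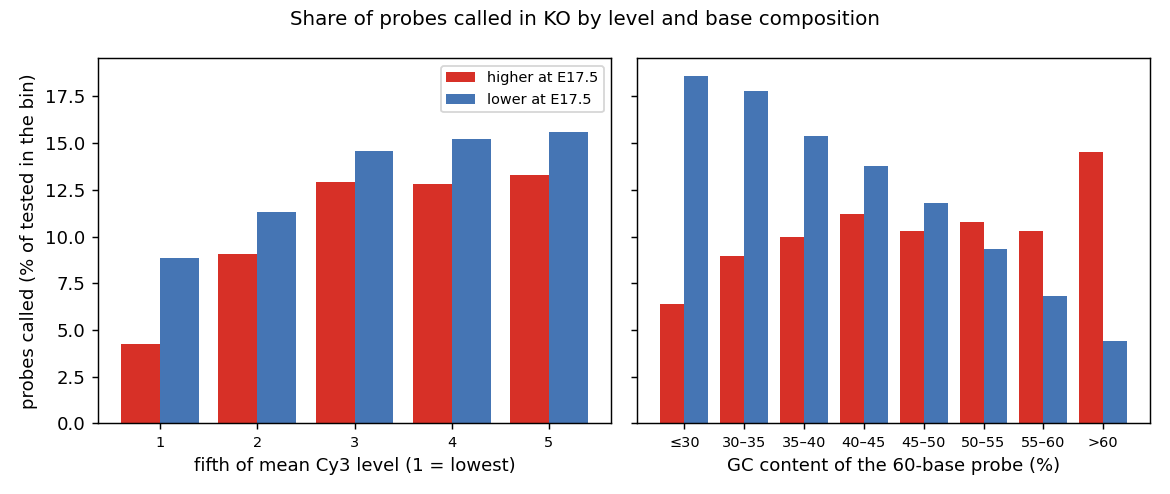
Percent of tested probes called higher (red) or lower (blue) at E17.5 in KO, by quintile of mean Cy3 signal on the left and by GC content of the probe on the right. Lower calls go from 18.6% at or below 30% GC to 4.41% above 60%, and higher calls from 6.37% to 14.5%.

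The array sequences also show where a probe holds the DNA complement of a microRNA seed. The sites of 12 microRNAs were counted. Given here are the mature RefSeq sequences of 2 that are well known in epidermis and of 2 whose sites had the largest shares of lower and of higher calls, chosen after the values were seen, with the seed in capitals.
miR-203-3p: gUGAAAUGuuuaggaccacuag
miR-205-5p: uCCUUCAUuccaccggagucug
miR-30a-5p: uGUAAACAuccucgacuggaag
miR-125b-5p: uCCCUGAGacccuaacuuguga
Only the sense strand of the probe was searched, and a match says that these 7 letters lie in the probe, not that the transcript is a target. The 7-base site CATTTCA of miR-203, an epidermal microRNA, was in 190 tested probes (0.682%), of which 12.1% were higher and 12.1% lower, beside 10.5% and 13.1% of all. ATGAAGG, the site of miR-205, was in 177, with 12.4% higher and 9.04% lower. The miR-203 shares lay near those of all probes. The miR-205 share called lower was below that of all, at 16 probes, and this gap was not tested.

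TGTTTAC, the site of the miR-30 seed, was in 171 probes, with 9.94% higher, 19.9% lower and a median change of -0.08 against -0.03 over all. These probes had a mean GC content of 40.1%, against 44.8% over all. CTCAGGG, the site of miR-125b, was in 130 probes, with 16.2% higher, 7.69% lower and a mean GC content of 50.5%. CTGAGCC, the site of miR-24, in 168 probes of 50.4% mean GC, had 8.33% higher and 16.1% lower. The part of GC content in these shares was not tested. Over the 12 sites the share called lower ran from 7.69% to 19.9% and the share called higher from 8.05% to 16.2%. In WT the median change was -0.04 for the miR-30 site and 0.03 for the miR-125b site.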

How the data were processed

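Footpad RNA (Cy3) and reference RNA (Cy5) were read on 8 arrays. Per the file headers, the authors used Agilent Feature Extraction 9.5.1.1, whose deposited processed intensities are background-subtracted and dye-normalized. The deposited series matrix holds log10 values. On 24641 probes these equalled the log10 ratio of Cy3 to Cy5 plus 1 constant for each probe, to within 0.00019, so their scale and direction are known and the constant's origin is not stated; the column medians were 2.23 to 2.24.

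From the deposited processed intensities the log2 ratio was taken, control spots and spots marked non-uniform (266 to 358 on an array) were left out, and repeated spots were averaged. limma 3.58.1 under R 4.3.3 was fitted with 1 mean for each of 4 groups over all 8 arrays, with Benjamini-Hochberg adjustment over all tested probes; every adjusted p comes from it, and the steps were tested on simulated data. Cy3 and Cy5 alone were centred on the array median first. Arrays carry no depth; their number limits the precision. Values were compared with normexp (offset 50) and loess, other scalings, filters, thresholds and priors, the series matrix, a replicate block and each array left out.

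Named genes are those called, with no overlap of the stages and both dyes well above background and unsaturated on all 4 KO arrays, up to 12 in each direction; unnamed probes are limited to 2 in each direction. A gene with several probes is given by its brightest. RefSeq promoter windows (250 bases before to 50 after a gene start, GRCm38.p6) placed 267 probes; exon and intron are not in the table used. The comparison, lists and members were chosen with earlier results of these data known. Gene lists, Dicer1 and cell type markers are not analysed here.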

Additional observations from a re-analysis of the deposited data

How the results depend on the processing

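The 6570 calls of a stage change in KO stayed within 1.5 times under median centring, quantile normalization, Cy3 alone, marked spots kept, both dyes or Cy3 above background on all 4 KO arrays, the series matrix, array weights, a robust prior with a trend, GC trend removal and normexp with loess fitted without marked spots (8151 calls, 5899 of them shared). They were 2970 with no filter on dim probes, 1254 at an adjusted p under 0.01, 1373 with the 4 KO arrays alone and 1191 to 5524 with each array left out. With normexp fitted on all spots they were 223, no named gene was called and Gm4718 turned to 0.13. In that fit the lowest Cy3 value of KO E17.5 replicate 2 after background subtraction was -26300, on a marked spot. The fitted Cy3 background of this array was -321, against 6.79 without marked spots. On WT E16.5 replicate 1 the lowest value was -168, and the fitted background was -7, against 6.06 without marked spots. Of the calls, 44.4% were higher; median centring gave 52.7% and quantile normalization 54.3%. The difference between KO and WT changes had 0 calls, 82 with normexp and loess without marked spots, 1 with Cy3 alone, and 0 to 1 with each array left out. Cy5 had 42 calls, 313 over all 4 arrays of each slide, 5 with the KO arrays alone and 2 to 187 with each array left out. Cy3 alone had 7312 calls, 3426 with the KO arrays alone and 2560 to 6564 with each array left out. With the replicate number as a block there were 4784 calls in KO, 0 for the difference, 30 in Cy5 and 5984 in Cy3 alone, and 10 of the 16 named genes were called. Over the tested probes, the KO difference of replicate 1 minus replicate 2 at E16.5 correlated with that at E17.5 at r = 0.131. With 1 such difference at each stage, this value cannot settle whether the numbers pair the arrays. No label gives same-numbered arrays a shared litter or day, so the numbers were not taken to pair them. The causes of these differences between settings were not tested. Of 572 values of single probes, 422 kept their direction and side of the threshold, 145 lost the call, 4 gained it and 1 reversed.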

Other observations

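Some sequences stand on the array under more than 1 identifier, which gives a check of the probes themselves. For 13 sequences with over 1 tested identifier, the stage changes in KO of the identifiers of 1 sequence differed by a median of 0.16 (log2), with a largest gap of 0.99, and in 11 of the 13 all identifiers lay on the same side of 0.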
